A study of Homo sapiens with 3 samples.

Results

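The 10 genes described here encode AP-1 subunits, MYC and other transcription factors of the immediate early response: FOS, FOSL1, FOSL2, JUN, JUNB, JUND, EGR1, IER2, MYC and KLF6. They were chosen by name, as the entries of the deposited gene table whose symbols equal these names. All 10 were found, each as 1 entry, among 13479 genes. The assay was CAGE (cap analysis of gene expression), which sequences short tags from the capped 5′ start of each transcript. The cells were EBC-1, a long-established line from a human squamous carcinoma of the lung. Cells had received RAB11A siRNA 1, RAB11A siRNA 2 or a negative control siRNA by electroporation, 600 pmol each, and all 3 groups shared the electroporation and its time of 72 h after plating. RAB11A is a small GTPase of the recycling endosome. Each group was 1 library of 1 cell line, so replicates cannot check any difference, and no test between conditions was possible within a comparison of 2 libraries. No source used here gives the time between electroporation and RNA extraction.

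AP-1 is a pair of basic leucine zipper proteins, most often 1 from the FOS family and 1 from the JUN family, that binds DNA as a dimer. JUN proteins can also pair with each other, whereas FOS proteins need a JUN partner or another zipper protein to bind. FOS, JUN, EGR1 and IER2 are classic immediate early genes, and their messages decay quickly. Growth factors and stress induce them within minutes, without new protein synthesis, through kinases and, for some of them, serum response factor. FOSL1 and FOSL2 are the more slowly induced members of the FOS family and lack the strong activation domain of FOS. MYC pairs with MAX on E-box sequences and drives ribosome production and growth, and MXD, MXI1 and MNT proteins compete with it for MAX. EGR1 and KLF6 are zinc finger proteins that bind GC-rich promoters.

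Since CAGE counts transcript starts, the sequence just before a start in use is the DNA most directly related to these values. A RefSeq promoter table of build GRCh38.p14 held 8 of the 10 genes, all but FOSL1 and MYC. The 250 bases before the RefSeq start were used, and each of the 8 matched exactly 1 place on its chromosome in GRCh37. By the gene bounds given below, the window of FOSL2 lies inside the gene and that of KLF6 partly inside. FOSL2 and KLF6 have 4 and 7 annotated starts, and which start the tags came from was not checked. Sequences are shown for the 3 genes whose log2 ratios to control were farthest from 0 among the 10: EGR1, lower with siRNA 1, JUND, lower with both siRNAs, and KLF6, higher with siRNA 1. They run 5′ to 3′ on the gene's own strand. Capitals mark CArG boxes and the cyclic AMP response core in EGR1, GC boxes, the cyclic AMP response element and its core and the CCAAT box in JUND, and CCAAT boxes, GC boxes, the E-box and the EGR site in KLF6. The windows lie at chr5:137800918-137801167 on the plus strand, chr19:18392433-18392682 on the minus strand and chr10:3827402-3827651 on the minus strand (GRCh37).
EGR1: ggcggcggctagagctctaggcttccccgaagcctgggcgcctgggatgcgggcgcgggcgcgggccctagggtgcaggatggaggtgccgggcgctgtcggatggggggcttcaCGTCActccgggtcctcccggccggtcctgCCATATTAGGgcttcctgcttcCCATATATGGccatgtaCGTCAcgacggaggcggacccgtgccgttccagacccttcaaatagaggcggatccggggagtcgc
JUND: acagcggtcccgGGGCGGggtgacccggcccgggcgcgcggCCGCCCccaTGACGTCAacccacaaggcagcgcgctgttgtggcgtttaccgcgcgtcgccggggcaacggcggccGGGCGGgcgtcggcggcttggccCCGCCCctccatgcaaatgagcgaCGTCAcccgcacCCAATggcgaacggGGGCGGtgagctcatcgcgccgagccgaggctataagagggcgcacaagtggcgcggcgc
KLF6: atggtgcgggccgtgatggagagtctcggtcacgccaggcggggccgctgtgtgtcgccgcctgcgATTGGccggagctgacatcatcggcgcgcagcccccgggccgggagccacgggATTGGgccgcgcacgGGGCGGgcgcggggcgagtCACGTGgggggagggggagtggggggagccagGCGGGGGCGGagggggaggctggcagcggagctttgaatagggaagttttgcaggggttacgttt

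Exact words were searched on both strands of the 8 windows and of all 35116 windows of the table. The CArG box, the site of serum response factor, was found in the EGR1 window alone among the 8, against 1.16% of all windows. EGR1 held it at 2 places, from 105 to 96 and from 83 to 74 bases before the start. The core of the cyclic AMP response element (TGACG or its reverse CGTCA) was in 7 of the 8 windows, all but KLF6, against 21.2% of all windows. Its full form, TGACGTCA, was in JUND alone, against 1.65%. The core was not among the motifs listed at the outset and was added with the matches in view. GC boxes (GGGCGG or CCGCCC) were in 6 of the 8, against 42.6%, and JUND held 5 of them. CCAAT or ATTGG was in 4, against 32.0%. The window of KLF6 held the only E-box (CACGTG, 6.34% of all windows) and the only EGR site (GCGGGGGCG or its reverse, 4.72%), which overlaps a GC box there. TATAAA, read on the gene's strand only, was in FOS and JUNB, against 6.80%. An Ets site (ACCGGAAG, CCGGAAGT or a reverse of them) was in IER2, against 4.30%. The AP-1 site TGACTCA or TGAGTCA (4.2% of windows) and the NF-kB site (5.21%) matched in none of the 8. The 8 windows held from 62% to 74.8% G and C, against a median of 58% over all windows, so GC-rich words are more frequent in windows of this kind. A match is a description of letters and not of binding. Sites farther from the start than these windows, or spelled otherwise than the words searched, would be missed. Absence of a match therefore does not show that a gene lacks the site, the CArG box included.

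Whole tags were recovered from the CPM steps of 0.04, which imply about 24999950 tags in every library, and 10788 genes averaged 5 CPM or more. Whether the libraries were brought to this common total before deposit was not tested, and intervals below refer to the recovered tags. Tags summed over genes were more than this total, 25204585 with siRNA 1, 25137457 with siRNA 2 and 25174787 with control. If that total holds all tags counted, some tags count in more than 1 entry. Which entries share tags was not tested. Ratios are log2 ratios of (CPM + 1), and every interval is a 95% interval of counting error alone. The other scalings named below, TMM and median ratio, set libraries by their typical gene in place of their total. Factors of the 2 were nearly the same (0.984 and 0.984 with siRNA 2, 1.017 and 1.016 with control), so they serve as 1 check. RAB11A itself stood at 7.48 CPM with siRNA 1, 22.7 CPM with siRNA 2 and 135 CPM with control, or 5.53% and 16.8% of control. Of 14 squamous lineage markers only PERP, SFN and S100A2 were listed, and KRT5, KRT14, TP63 and SOX2 had no row in the values used here, while 6 of 10 epithelial markers were. Epithelial markers summed to 1067, 926 and 889 CPM with siRNA 1, siRNA 2 and control. Of markers of other cells, COL1A1 and COL1A2 summed to between 2.60 and 3.32 CPM, and none of the endothelial or alveolar markers was listed. CD68, a lysosomal protein of macrophages also made by other cells, was the only leukocyte marker listed, at 21.1, 31.4 and 45.2 CPM. The libraries were of a single cultured line, EBC-1, and why CD68 differed between them was not tested.

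FOSL1 was by far the most abundant of the 10 genes and FOS the least, in all 3 libraries. CAGE gives about 1 tag position per transcript whatever its length, so levels in CPM were compared between genes without division by length. FOSL1 stood at 646, 652 and 609 CPM with siRNA 1, siRNA 2 and control, at rank 231, 237 and 234 among the genes compared. The next, JUN, was 3.04 times lower in both siRNA libraries and 2.71 times lower in control. MYC, JUNB and JUND followed, then KLF6, FOSL2, EGR1, IER2 and FOS, and this order was the same in all 3 libraries. The intervals of some neighbours overlapped. In control MYC, JUNB and JUND could not be told apart at 172, 170.1 and 170.04 CPM. With siRNA 2 the intervals of MYC and JUNB overlapped, as did those of FOSL2 and EGR1. With siRNA 1 no neighbours overlapped.

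**Figure D1:**
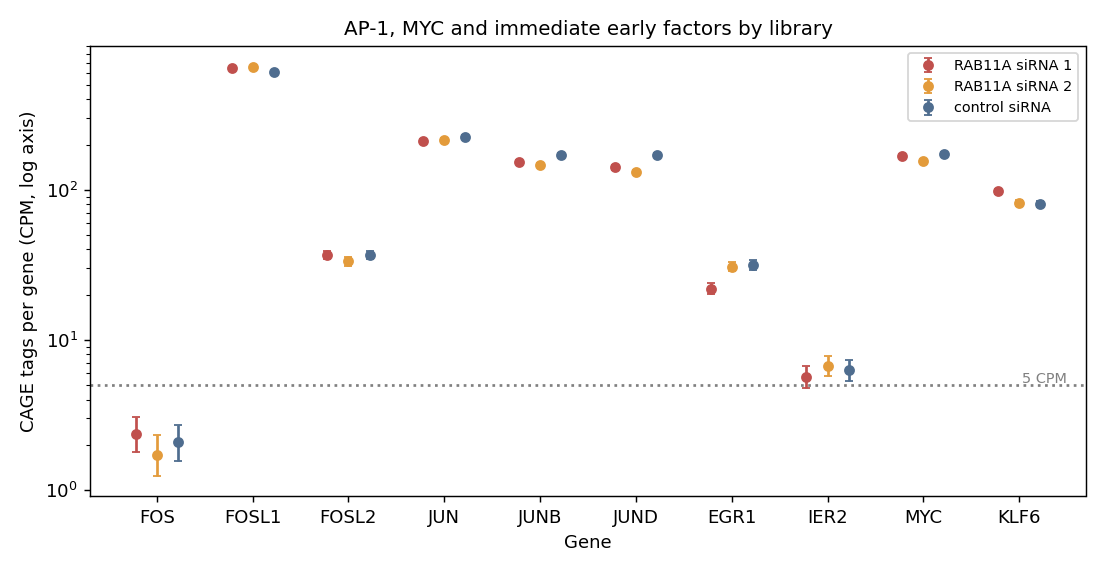
Level of each gene in CPM (log axis) in the libraries of RAB11A siRNA 1, RAB11A siRNA 2 and control siRNA, 1 point per library with its 95% Poisson interval. FOSL1 lies above 600 CPM and FOS below 3 CPM in every library, and the dotted line marks the minimum mean of 5 CPM for comparison.

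No gene of the 10 was 1.5-fold apart between any pair of libraries. Of the 9 with a mean of at least 5 CPM, 0 were at least 2-fold apart with siRNA 1 against control, where 0.89% of all genes compared were. The count was also 0 of 9 with siRNA 2 against control (all genes 0.463%) and with siRNA 1 against siRNA 2 (0.352%). At 1.5-fold the count was 0 of 9 in each of the 3 comparisons, where 5.37%, 3.1% and 1.59% of all genes were called. With 9 genes, counts of 0 lie close to what these shares amount to. The median log2 ratio of the 9 was -0.08 with siRNA 1 against control, -0.06 with siRNA 2 against control and 0.07 with siRNA 1 against siRNA 2, beside -0.03, -0.04 and 0.02 over all genes. With siRNA 2 against control the median of all genes was 0.0012 under TMM scaling, so small ratios below control depend on the scaling. The median size of the ratio, without its sign, was 0.12, 0.10 and 0.10 for the 9, and 0.17, 0.15 and 0.12 for all genes.

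**Figure D2:**
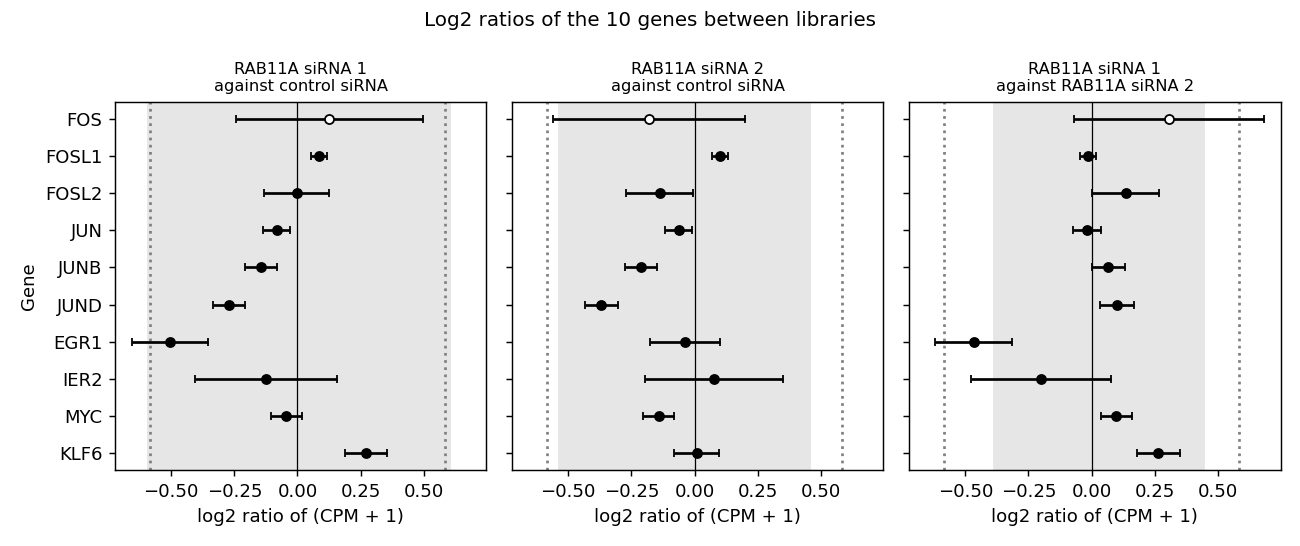
Log2 ratios of (CPM + 1) of the 10 genes in the 3 comparisons, with 95% counting intervals. Grey bands hold the middle 95% of all 10788 genes, dotted lines mark 1.5-fold and the open symbol is FOS, below 5 CPM. EGR1 with siRNA 1 is the point farthest below 0 against control (-0.50) and against siRNA 2 (-0.47), and JUND is that point for siRNA 2 against control (-0.37).

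Among the FOS family, FOSL1, also called FRA1 and often the leading FOS protein of carcinoma lines, was slightly higher in both siRNA libraries. Its log2 ratio was 0.08 with siRNA 1 (interval 0.05 to 0.12) and 0.10 with siRNA 2 (0.07 to 0.13), and both siRNA libraries lay above control while their own intervals overlapped. With 15226 tags or more per library, counting error alone is small enough for differences of this size to stand clear of it, so an interval off 0 here says nothing of spread between cultures. Of all genes compared, 67.7% lay below FOSL1 with siRNA 1 and 74.4% with siRNA 2. FOSL2, the other FOS-related antigen, stood at 36.6, 33.3 and 36.7 CPM with siRNA 1, siRNA 2 and control, and all 3 intervals overlapped. The log2 ratio of FOSL2 was -0.14 with siRNA 2 (-0.27 to -0.01), but -0.09 under both other scalings, where the interval holds 0. It was -0.0031 with siRNA 1 (-0.13 to 0.13), where its sign flipped under both other scalings. FOS, the prototype of the family, rested on 59, 43 and 52 tags, or 2.36, 1.72 and 2.08 CPM. No difference in FOS was detectable at this depth, with log2 ratios of 0.13 (-0.24 to 0.50) and -0.18 (-0.56 to 0.20), and its mean lay under the minimum for comparison. FOSB, the remaining FOS gene, matched no symbol in the values used here.

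All 3 JUN genes were lower in both siRNA libraries than in the control library, JUND most and JUN least. JUND, the member of the family with the steadiest expression in resting cells, stood at 141 CPM with siRNA 1, 131 CPM with siRNA 2 and 170.04 CPM with control. Both siRNA libraries were low for JUND and neither interval reached that of control. The log2 ratio of JUND was -0.27 (-0.33 to -0.21) and -0.37 (-0.44 to -0.30), or 82.8% and 77.3% of control. Only 7.75% of all genes had a lower ratio than JUND with siRNA 2, and 16.05% with siRNA 1. JUNB, which can restrain JUN in growth control, stood at 154, 147 and 170.1 CPM with siRNA 1, siRNA 2 and control, again lowest with siRNA 2. JUNB had log2 ratios of -0.14 (-0.21 to -0.08) and -0.21 (-0.27 to -0.15). JUN itself, the main transactivating partner, stood at 212, 215 and 225 CPM, with ratios of -0.08 (-0.14 to -0.03) and -0.06 (-0.12 to -0.01), the second of which was -0.02 under both other scalings, where its interval holds 0. Ratios of JUN are close to the middle of all genes, where 40.9% and 46.4% lay lower. Here and below, both ratios to control use the same single control library, so they are not independent of each other.

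Summed over the family, FOS genes gave 685 CPM with siRNA 1, 687 CPM with siRNA 2 and 648 CPM with control. JUN genes summed to 507, 493 and 565 CPM. Log2 ratios of the sums with siRNA 2, 0.09 for FOS genes and -0.20 for JUN genes, were 0.13 and -0.15 under both other scalings. FOS family tags thus outnumbered JUN family tags 1.35 to 1 with siRNA 1 (1.32 to 1.38) and 1.39 to 1 with siRNA 2 (1.36 to 1.43), against 1.15 to 1 with control (1.12 to 1.17). This ratio is taken within a library, so no scaling between libraries alters it, and the siRNA libraries differed from control by 0.24 (0.19 to 0.28) and 0.28 (0.23 to 0.33) on the log2 scale. Between siRNA 1 and siRNA 2 the difference was -0.05 (-0.09 to 0.00). FOSL1 made up 94.3%, 94.9% and 94.01% of FOS family tags with siRNA 1, siRNA 2 and control, and FOS 0.345%, 0.250% and 0.321%. Within the JUN family the share of JUND was 27.8% with siRNA 1 (27.0% to 28.6%, exact binomial), 26.6% with siRNA 2 (25.9% to 27.4%) and 30.1% with control (29.4% to 30.9%). JUN had 41.9%, 43.6% and 39.8%, and JUNB 30.4%, 29.8% and 30.1%. The share of JUND was thus lower and that of JUN higher in both siRNA libraries, while the intervals of JUNB overlapped.

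**Figure D3:**
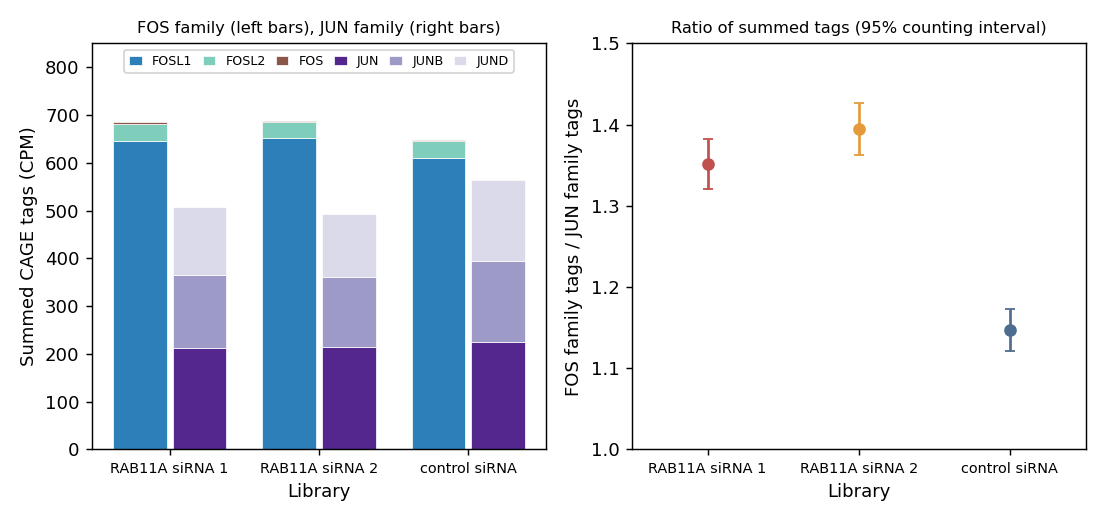
Left, summed CAGE tags in CPM of the FOS family (left bar of each pair) and the JUN family (right bar) by library, divided by gene. Right, FOS family tags over JUN family tags with 95% counting intervals, at 1.35 with siRNA 1, 1.39 with siRNA 2 and 1.15 with control (axis from 1.0).

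EGR1, which transmits growth factor and stress signals to promoters with GC-rich sites, differed between the siRNAs. It stood at 21.96 CPM with siRNA 1, 30.7 CPM with siRNA 2 and 31.6 CPM with control, on 549, 768 and 789 tags. Only the siRNA 1 library was low, and its interval of 20.2 to 23.9 CPM did not reach those of the other libraries. The log2 ratio of EGR1 was -0.50 with siRNA 1 against control (-0.66 to -0.35), the ratio farthest from 0 among the 10 genes, and 3.88% of all genes lay lower. With siRNA 2 against control it was -0.04 (-0.18 to 0.10), and its sign flipped under both other scalings. Against siRNA 2, without the control library, EGR1 was lower with siRNA 1 by a log2 ratio of -0.47 (-0.62 to -0.31), and 1.40% of all genes lay lower. RAB11A had less of its level left with siRNA 1 than with siRNA 2; whether this bears on EGR1 was not tested. IER2, a nuclear protein of the same early response, stood at 5.68, 6.68 and 6.28 CPM with siRNA 1, siRNA 2 and control, and its 3 intervals overlapped. Of the NAB corepressors that EGR1 recruits, NAB1 stood at 27.4, 25.2 and 25.5 CPM with siRNA 1, siRNA 2 and control, and NAB2 at 5.4, 5.92 and 6.76 CPM.

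MYC stood at 167 CPM with siRNA 1, 156 CPM with siRNA 2 and 172 CPM with control. The siRNA 2 library was the lowest, and the interval of siRNA 1 overlapped that of control. The log2 ratio of MYC was -0.04 with siRNA 1 (-0.11 to 0.02) and -0.14 with siRNA 2 (-0.20 to -0.08), in the middle of all genes, of which 47.5% and 33.1% lay lower. KLF6, a zinc finger factor described as a tumour suppressor, stood at 97.7 CPM with siRNA 1, 81.2 CPM with siRNA 2 and 80.8 CPM with control. Only the siRNA 1 library was high. The log2 ratio of KLF6 was 0.27 with siRNA 1 (0.19 to 0.36), with 86.9% of genes below it, and 0.01 with siRNA 2 (-0.08 to 0.10). Between siRNA 1 and siRNA 2 it was 0.26 (0.18 to 0.35). EGR1 and KLF6 were therefore the genes in which the libraries of siRNA 1 and siRNA 2 stood farthest apart among the 9 compared.

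Counting tests give far more calls than fold rules here. An exact binomial test of the tags of 2 libraries, with Benjamini-Hochberg adjustment over all genes, compares those libraries and not the conditions. It called 6 of 9 with siRNA 1 against control, where it called 52.5% of all genes, 5 of 9 with siRNA 2 (48.3%) and 4 of 9 between siRNA 1 and siRNA 2 (36.8%). FOSL1 was higher and JUN, JUNB and JUND lower in both calls against control, EGR1 was lower and KLF6 higher with siRNA 1, and MYC was lower with siRNA 2. Between siRNA 1 and siRNA 2, JUND, MYC and KLF6 were higher and EGR1 lower with siRNA 1. These counts are not far above the shares for all genes. A limma fit took both siRNA libraries as 1 group against the single control, which has no replicate. Its spread comes only from differences between siRNA 1 and siRNA 2, so its p-values do not measure spread between cultures and are not given. Log2 ratios of the 9 genes in this fit ran from -0.32 for JUND to 0.14 for KLF6.

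Of proteins that can pair with FOS or JUN proteins, more stood below control than above. Of 20 such partners, 14 entries were listed and 12 compared, 2 of them entries of ATF7, and their median log2 ratio was -0.25 with siRNA 1 and -0.23 with siRNA 2. With siRNA 1, 9 were below and 3 above control, where 54.6% of all genes were below. With siRNA 2, 10 were below and 2 above, where 58.2% of all genes were below. BATF3 alone was 1.5-fold higher with siRNA 1 and none was 1.5-fold apart with siRNA 2. BATF3, a factor of dendritic cell development, stood at 10.1, 5.56 and 6.16 CPM with siRNA 1, siRNA 2 and control, so the siRNA 1 library alone was high. JDP2, a repressor that dimerizes with JUN, stood at 26.8, 27.3 and 38.3 CPM (log2 ratios -0.50 and -0.47). NFE2L1, an activator of proteasome genes, stood at 79.1, 80.8 and 109 CPM (-0.46 and -0.43). NFE2L3, its relative, was higher, at 58.0, 52.4 and 39.7 CPM (0.54 and 0.39). The stress factor ATF3 was low throughout, at 7.52, 6.20 and 8.96 CPM.

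Other immediate early genes stood on both sides of control. Of 40 symbols, older and newer names included, 32 entries were listed and 25 compared, with 12 above and 13 below control with siRNA 1 and 7 above and 18 below with siRNA 2. Their medians were -0.08 and -0.17, and with siRNA 1 the sign of the median flipped to 0.05 at a minimum mean of 1 or 20 CPM and with no filter. CYR61, a secreted matricellular protein, was the only one 2-fold apart, with siRNA 1, at 487 CPM with siRNA 1, 388 CPM with siRNA 2 and 241 CPM with control. Lower were IER3, a regulator of cell survival, at 60.7, 65.6 and 96.4 CPM (-0.66 and -0.55), and IER5L at 19.2, 16.9 and 28.8 CPM (-0.56 and -0.73). BTG1, an antiproliferative factor, stood at 27.7, 28.8 and 40.5 CPM (-0.53 and -0.48).

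Genes upstream of the 10, kinases and the factors that act on the CArG box, were near control. All 23 listed of 25 symbols were compared, with medians of -0.03 and -0.06 (the second -0.02 under both other scalings), and 8 stood above and 15 below control with siRNA 1, 10 above and 13 below with siRNA 2. SRF itself stood at 22.5, 25.7 and 22.7 CPM with siRNA 1, siRNA 2 and control. ELK3, an Ets factor that joins it, stood at 127, 131 and 102 CPM (0.32 and 0.37). MAPK3, the kinase ERK1, had 36.04, 42.1 and 31.3 CPM (0.20 and 0.41), and RPS6KA1, the ERK-activated kinase RSK1, 17.2, 13.8 and 12.6 CPM (0.42 and 0.13). MAPK9, the kinase JNK2 that phosphorylates JUN, had 33.6, 24.2 and 37.2 CPM (-0.14 and -0.60) and was the only one of the list 1.5-fold apart, with siRNA 2.

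Among MYC partners and antagonists, the genes with the largest ratios were lower in both siRNA libraries. Of 18 symbols 15 were listed and 12 compared, with medians of -0.24 and -0.19, and 8 below and 4 above control with each siRNA. MXD1, an antagonist that takes MAX from MYC, stood at 17.8, 19.3 and 33.7 CPM (-0.89 and -0.78), 1.5-fold lower in both. MXD4 stood at 43.3, 28.2 and 52.6 CPM (-0.27 and -0.87) and MXI1 at 17.6, 18.96 and 23.7 CPM (-0.41 and -0.31). PIM1, a kinase that phosphorylates MYC, stood at 12.3, 9.68 and 18.3 CPM (-0.54 and -0.85). Growth genes known as MYC targets lay close to control: 29 of 30 were listed and 28 compared, none 1.5-fold apart. With siRNA 1, 12 stood above and 16 below control, and with siRNA 2, 8 and 20. Between the siRNAs, 21 were higher and 7 lower with siRNA 1, where 55.0% and 44.6% of all genes were. Medians of these targets against control were -0.03 and -0.11, and -0.0040 and -0.06 under TMM scaling. Higher were NME1, a nucleoside diphosphate kinase, at 395, 364 and 303 CPM (0.38 and 0.26), and BOP1, a ribosome assembly factor, at 40.6, 39.2 and 34.4 CPM (0.23 and 0.18). HSPD1, the mitochondrial chaperonin, was lower at 311, 273 and 360.2 CPM (-0.21 and -0.40), as was PPAN, another ribosome assembly factor, at 101, 88.8 and 117 CPM (-0.21 and -0.40).

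Genes known as AP-1 targets were split. Of 30 symbols 19 were listed and compared, with 9 above and 10 below control with siRNA 1 and 10 above and 9 below with siRNA 2. Their medians were -0.04, which became 0.03 at a minimum mean of 20 CPM, and 0.0043, which became 0.05 under both other scalings. CD44, a hyaluronan receptor, was higher at 111, 107 and 78.7 CPM (0.49 and 0.44), and so was SPRY2, an inhibitor of receptor kinase signalling, at 45.2, 43.4 and 30.9 CPM (0.53 and 0.48). VEGFA, a vascular growth factor, was lower at 65.6, 94.04 and 143 CPM (-1.11 and -0.60). MMP1, the collagenase whose promoter defined an AP-1 site, was low and differed between siRNAs, at 3.92 CPM with siRNA 1, 12.6 CPM with siRNA 2 and 6.96 CPM with control. Of other KLF and SP factors, 16 of 17 were listed and 13 compared, with medians of -0.18 and -0.20 and 10 below control with each siRNA. KLF5, an epithelial growth regulator, was 1.5-fold higher with siRNA 1, at 25.2 CPM with siRNA 1, 18.3 CPM with siRNA 2 and 15.6 CPM with control. KLF10, KLF13 and SP2 had ratios of -0.42, -0.21 and -0.13 with siRNA 1 and of -0.20, -0.35 and -0.48 with siRNA 2. Over all genes 45.1% lay above and 54.6% below control with siRNA 1, and 41.4% above and 58.2% below with siRNA 2.

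**Figure D4:**
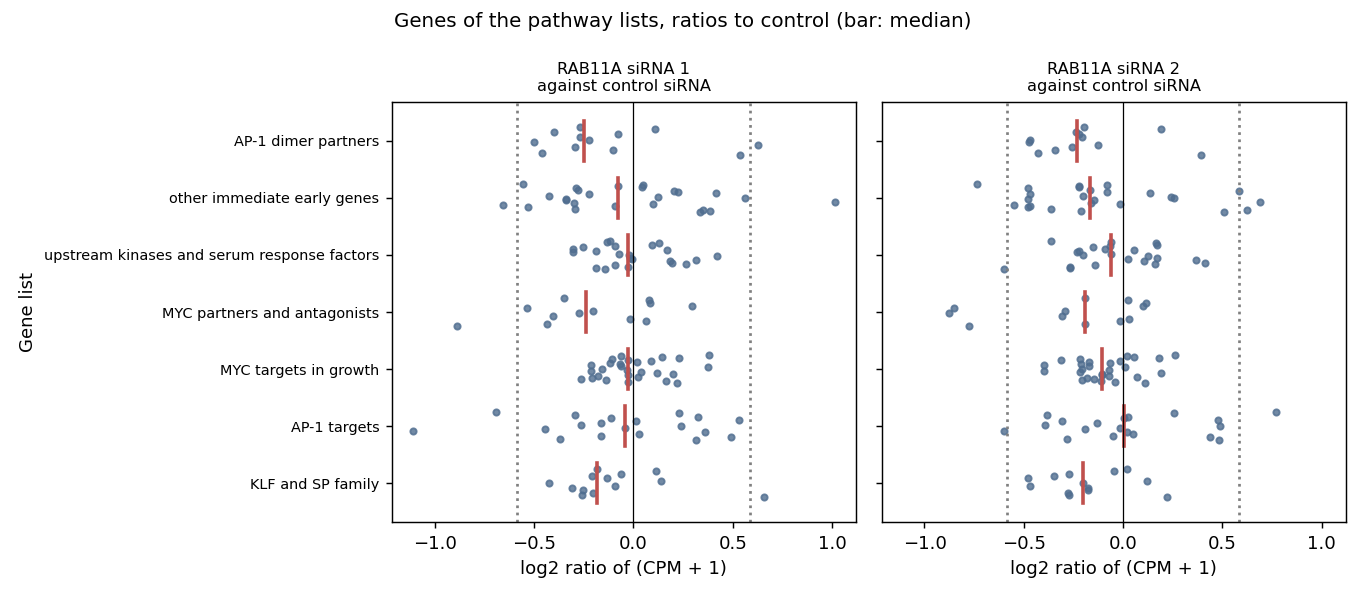
Log2 ratios to control of the genes compared in each of the 7 lists, 1 point per entry and a bar at the median, for siRNA 1 (left) and siRNA 2 (right). Dotted lines mark 1.5-fold. Medians lie between -0.25 and -0.03 with siRNA 1 and between -0.23 and 0.0043 with siRNA 2.

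The genes whose 2 ratios to control were most like those of JUND, EGR1 and JUNB were looked up among 6930 others with a mean of at least 20 CPM, by the distance between the pairs of ratios. JUND, EGR1 and JUNB have the largest mean ratio size of the 9. Among the nearest to JUND were VPS36 and TUBB2B, at distances of 0.003 and 0.015, and 61 genes lay within 0.05. EGR1 had fewer close neighbours, 6 within 0.05, of which CTNNB1, MARK3 and HCCS were nearest (0.017 to 0.025). CTNNB1, which encodes beta-catenin, stood at 101, 142 and 145.5 CPM with siRNA 1, siRNA 2 and control. For JUNB they were EMC8, CAD and SLC1A5, with 185 within 0.05. Likeness over 3 libraries with 1 control is a description. For EGR1 the counting standard errors of the 2 ratios, 0.077 and 0.071, exceed the radius of 0.05. For JUND they were 0.033 and 0.033 and for JUNB 0.032 and 0.032, larger than the distances to the genes named. Which genes are nearest to JUND, EGR1 or JUNB therefore lies within counting error.

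The siRNAs were also read against the 10 genes. In the sequences below, from the protocols and read as sense strands, capitals mark the letters whose copy in a target pairs with guide positions 2 to 8.
RAB11A siRNA 1: gcauccagguuGAUGGAAa
RAB11A siRNA 2: agcaagagcuuUUGCAGAa

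In canonical 3′ UTRs (GENCODE, GRCh37), the site of siRNA 1 (GATGGAA) was in 14.6% of 9598 compared genes and that of siRNA 2 (TTGCAGA) in 16.1%. KLF6 held 1 of each in a 3′ UTR of 3543 bases, and none of the other 9 genes held either, EGR1 (1222 bases) and JUND (747 bases) included. The first 50 bases of every annotated start of the 10 genes were searched against GRCh37, and no second place with 2 or fewer mismatches was found. The search begins from exact runs of letters, so it can miss copies that hold mismatches. Of 4 starts of FOSL2, 1 was not found in full at its own place. No other entry of the table had the same 3 values as any of the 10. JUNB overlaps HOOK2 on the opposite strand, which stood at 3.44, 3.92 and 4.52 CPM. Other overlapping annotated genes, at FOSL2, IER2 and MYC, are noncoding and had no entry in the values used here. Whether tags were counted by strand is not stated, although the table gives each entry a strand. JUN, JUNB and JUND each have 1 exon, EGR1 and IER2 have 2, MYC 3, and FOS, FOSL1, FOSL2 and KLF6 4.

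In GRCh37 the genes lie on chromosomes 5 (EGR1, 137801168 to 137804992, plus strand), 14 (FOS, 75745529 to 75748933, plus strand), 11 (FOSL1, 65659520 to 65668044, minus strand), 2 (FOSL2, 28615315 to 28640184, plus strand), 19 (IER2, 13261225 to 13265725, plus strand), 1 (JUN, 59242517 to 59249720, minus strand), 19 (JUNB, 12902300 to 12904129, plus strand), 19 (JUND, 18390504 to 18392432, minus strand), 10 (KLF6, 3818188 to 3827473, minus strand), 8 (MYC, 128747680 to 128755197, plus strand).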

How the data were processed

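Total RNA of EBC-1 went into the CAGE libraries, per the labels' protocols. The authors deposited tags per gene in CPM, each entry named with a strand, 1 column for each of the 3 libraries. Columns were matched to libraries by name. The submitters' processing notes name hg19, BWA and HISAT2. The sources used here do not give their versions or roles, the counting tool or the annotation. Of the deposited CPM values, 99.99% or more in each library were whole multiples of about 0.04 CPM within 0.005 CPM, which gave tags. Every entry reached at least 0.52 CPM in some library.

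Ratios were log2 of (CPM + 1), a scale that understates changes of low genes, restricted to genes averaging 5 CPM (125 tags) or more. Fold rules of 2 and 1.5 were used, because 1 library a group leaves no test. Exact Poisson intervals came from the tags. Intervals cover counting error only, and whether a tag is a separate molecule is not stated. The 10 genes, the lists, the rule for named genes and the tests were chosen with earlier results of these data known. Named genes were the 10, RAB11A, up to 4 per list by mean ratio size, and 3 nearest genes for each of 3. One of these nearest genes is not reported here. ATF3, SRF, NAB1, NAB2, HOOK2 and the cell markers fall outside that rule and were named after their values were seen. The counting scripts were tested on simulated data.

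Tools were matplotlib 3.10.9, scipy 1.17.1, Python 3.11.15, pandas 2.3.3, numpy 2.4.6, pysam 0.24.0, minimap2 2.31, R 4.3.3, edgeR 4.0.16 for TMM and limma 3.58.1. Alternatives were a pseudocount of 0.5 or 5 CPM, a filter at a mean of 1 or 20 CPM or none, TMM and median ratio scaling, the binomial test and limma.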

Additional observations from a re-analysis of the deposited data

How the results depend on the processing

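The count of the 9 compared genes past 1.5-fold stayed at 0 in all 3 comparisons under every pseudocount, filter and scaling tried. Of 207 recomputed ratios of the 10 genes, 4 changed sign, those of FOSL2 with siRNA 1 and EGR1 with siRNA 2 under both scalings. No pseudocount or filter can change the sign of a single gene's ratio or of a family sum, so only the scalings could. The ratio of FOSL1 with siRNA 2, 0.10, was 0.15 under both scalings, and family sums kept their sign in all 42 but 4 moved by more than counting error. Of 147 list medians 8 changed sign and 17 moved. At a minimum mean of 20 CPM the median of MYC partners and antagonists was -0.31 with siRNA 1, against -0.27 for the dimer partners. The median of all genes with siRNA 2, -0.04, was 0.0012 under TMM scaling. Genes 2-fold apart with siRNA 1 against control, 96, became 50 at a pseudocount of 5 CPM, 51 with the filter at 20 CPM and 147 unfiltered. With siRNA 2 against control, 50 became 79 with the filter at 1 CPM, 21 at 20 CPM and 85 unfiltered. Between siRNA 1 and siRNA 2, 38 became 11 at 20 CPM and 60 with no filter. Genes 1.5-fold apart, 579 with siRNA 1 against control, became 352 at a pseudocount of 5 CPM and 339 at 20 CPM. With siRNA 2 against control, 334 became 201, 179 and, with no filter, 520, and 134 higher and 200 lower became 172 and 161 under TMM scaling. Between siRNA 1 and siRNA 2, 172 became 89 at the higher pseudocount, 267 at 1 CPM, 74 at 20 CPM and 299 with no filter. The binomial test called 5661, 5213 and 3968 genes in these comparisons. Fewer or more genes compared follow from the filters by construction, and other causes were not tested. No paired analysis was possible because each group has 1 library. Depth limits FOS and IER2 most, at 43 to 167 tags.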
